A study of Mus musculus with 118 samples.

Results

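The genes described here encode the subunits of Kv4 channels, the voltage-gated potassium channels that carry a fast, subthreshold A-type current, and the proteins that bind them. They were chosen by name, and the counts table held 8 of them among its 23998 gene symbols: the pore-forming subunits *Kcnd2* and *Kcnd3*, the K-channel-interacting proteins (KChIPs) *Kcnip1*, *Kcnip2*, *Kcnip3* and *Kcnip4*, and the dipeptidyl peptidase-like (DPP-like) subunits *Dpp6* and *Dpp10*. The measurements were made by Patch-seq, in which the cytosol of a recorded neuron is drawn into the pipette and sequenced, on labeled single cells of SOM-Cre/Ai9 mice from layers 4 and 5 (L4, L5) of primary visual (V1) and somatosensory (S1) cortex. Adult mice of both sexes were used, with no treatment. Cre expressed from the somatostatin gene turns on the tdTomato reporter of Ai9, so a cell that once expressed somatostatin stays labeled and a labeled cell need not express *Sst* when it is recorded. A cell was kept when at least 1500 genes were detected, *Slc17a7* did not exceed *Gad1* plus *Gad2*, and *Sst* had a read. This left *n* = 42 cells of V1 L4 and *n* = 17 of V1 L5, beside *n* = 34 of S1 L4 and *n* = 16 of S1 L5. Of the 9 cells left out, 4 fell below the gene limit, 1 was glutamatergic by this rule and 4 had no *Sst* read.

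Each pore subunit binds others to form the channel, KChIPs are calcium-binding proteins that attach to the cytoplasmic end of the pore subunit and set surface expression and recovery, and the DPP-like subunits are membrane proteins that speed gating and have lost the peptidase activity of their relatives. In cortical neurons the A-type current delays the first spike and limits how far action potentials spread back into dendrites.

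The deposited read totals of kept cells ran from 97904 to 3295232 (median 1111833), and 3 cells, all in L5, had fewer than 250000 reads. The median cell's 3-read floor was 2.70 CPM, the reads of a gene scaled to a common library total. No label tells which animal a cell came from, and each combination of area and layer therefore counted as 1 sample of many cells. No p-value was therefore computed from cells, and exact 95% binomial intervals cover counting error only. The recordings fell on 9 days in 2 series (6 days and 3 days), and all L5 cells came from 4 days of the first series. The study's methods give fewer Patch-seq mice than there are days, so the days are not independent animals. Levels are log2(CPM + 1), a difference is between group means on that scale, and the spread used for a difference is its SD across the days with at least 2 kept cells in each group. A difference was called when it was at least 1 in size and had 1 sign in every such day, among genes with 32 or more counts in at least 10 of the compared cells. All 7 inhibitory markers (*Gad1*, *Gad2*, *Slc32a1*, *Lhx6*, *Sox6*, *Elfn1*, *Grin3a*) had reads in every group, with a pooled sum between 3695 and 4515 CPM. The 6-gene oligodendrocyte list, led by *Mbp*, differed between areas, with pooled sums of 239.9 CPM in V1 L4 (per cell 0 to 3717) and 218.1 in V1 L5 (0 to 3870), against 1091 in S1 L4 (0 to 9510) and 698.3 in S1 L5 (0 to 5445); *Mag* and *Cldn11* were at 0 in V1 L4, and *Mog* and *Cldn11* in V1 L5. Between the L5 groups the 6-gene microglia list, led by *C1qb*, was at 484 CPM in V1 (0 to 3220) and 132.5 in S1 (0 to 725), and the 6-gene astrocyte list at 7.05 in V1 (0 to 99.4) and 70.2 in S1 (0 to 902), with *Aqp4*, *Gfap* and *Slc1a3* at 0 in V1 L5. In L4 the microglia list was at 219.7 CPM in V1 (0 to 1512) and 159.7 in S1 (0 to 1105), and the astrocyte list at 112.5 (0 to 3845) and 62.4 (0 to 1136), with *Gfap* at 0 in S1 L4. The part of these lists in the results below was not tested.

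On the per-length scale of the deposited RPKM, the subunits spanned a wide range (mean ± SD across all kept cells). *Kcnip1*, the main KChIP of these cells, was highest at 180.9 ± 156.6 RPKM. *Dpp6* followed at 59.5 ± 48.8 and *Dpp10* at 38.2 ± 40.4. *Kcnip4* averaged 29.2 ± 75.4, *Kcnd2* 20.2 ± 27, *Kcnip2* 18.1 ± 42.4, *Kcnd3* 7.29 ± 15.9 and *Kcnip3* 3.0 ± 13.1. The SD exceeded the mean for *Kcnd2*, *Kcnd3*, *Kcnip2*, *Kcnip3*, *Kcnip4* and *Dpp10*, so neighbours in this order overlapped widely between cells. Summed by class, the KChIPs reached 231 ± 170.7 RPKM, the DPP-like subunits 97.7 ± 62.0 and the pore subunits 27.5 ± 30.6.

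**Figure D1:**
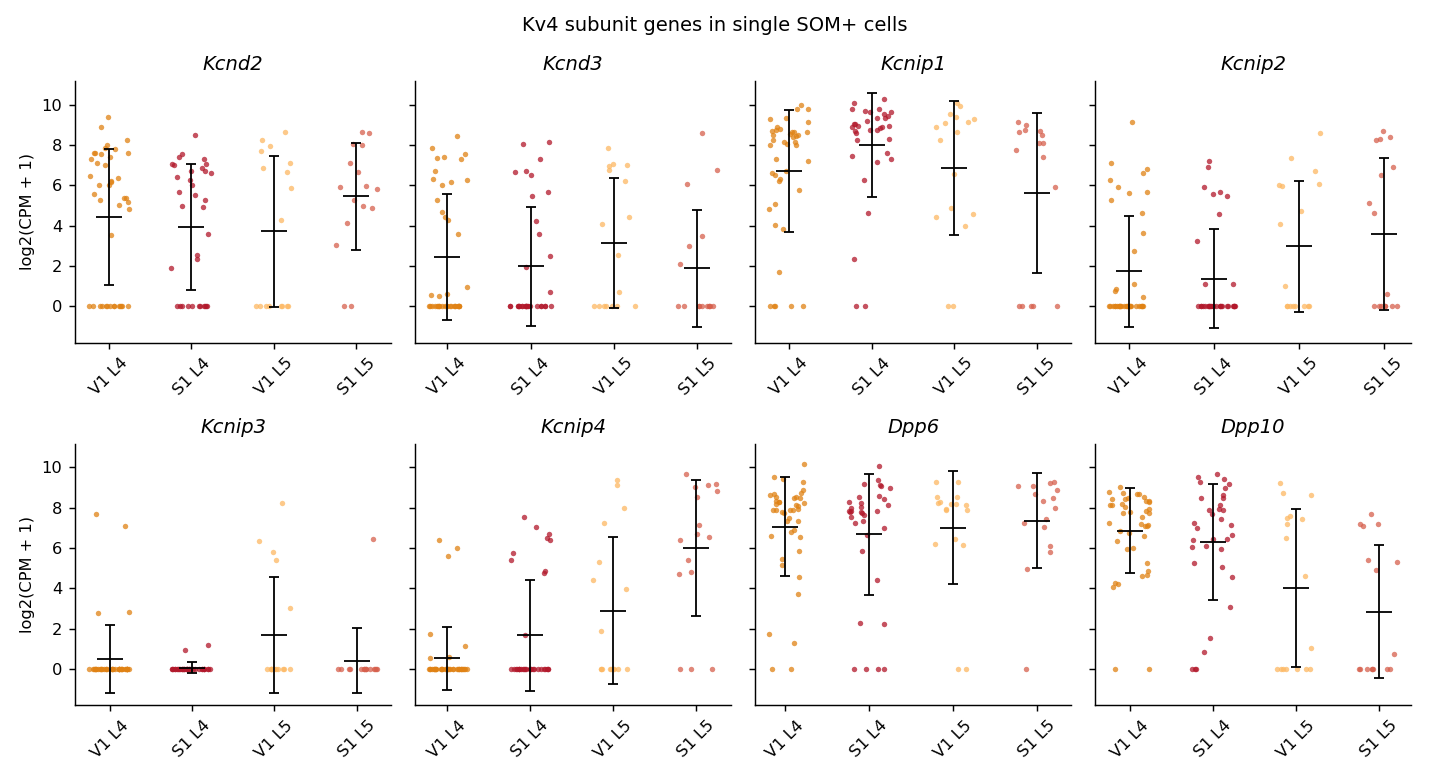
Level of each of the 8 genes, as log2(CPM + 1) on the vertical axis, in the cells of each area and layer (1 point per cell, horizontal bar and whiskers for mean ± SD). *Dpp6* sits at similar means in all groups (6.68 to 7.35), *Kcnip4* is at 0 in most L4 cells and averages 6.01 in S1 L5, and *Dpp10* averages 6.86 in V1 L4 and 2.85 in S1 L5.

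Among the pore subunits, *Kcnd2* (Kv4.2; GRCm38 chr6:21215503-21729805, plus strand) was the more often detected. In V1 it had reads in 28 of 42 L4 cells (66.7%, 50.5 to 80.4) and 9 of 17 L5 cells (52.9%, 27.8 to 77.0), and in S1 in 23 of 34 L4 cells (67.6%, 49.5 to 82.6) and 14 of 16 L5 cells (87.5%, 61.7 to 98.4). Its level in V1 ran from 0 to 666 CPM (median 43.8) in L4 and from 0 to 403 (median 18.15) in L5, and in S1 from 0 to 359 (median 34.4) in L4 and from 0 to 405 (median 57.4) in L5. The ranges of the groups overlapped almost completely, and zero was the lowest value in each. *Kcnd3* (Kv4.3; chr3:105452330-105674002, plus strand) was found in 20 of 42 V1 L4 cells and 10 of 17 V1 L5 cells (highest 349 and 231 CPM), and in 13 of 34 S1 L4 cells and 6 of 16 S1 L5 cells (highest 285 and 382 CPM). The exons of *Kcnd3* overlap those of the antisense gene *Kcnd3os*; whether reads were counted by strand is not given in the sources used here, so reads of the shared bases cannot be told apart.

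Reads of both pore genes were present in 33 cells (30.3% of all kept cells, 21.8 to 39.8), of *Kcnd2* alone in 41, of *Kcnd3* alone in 16 and of neither in 19. *Kcnd3* was detected in 44.6% of cells with *Kcnd2* and in 45.7% of cells without it. The levels of the pair gave Pearson r = -0.07 across all kept cells once the group means were taken off. Where a pore read was present, *Kcnd2* had the higher RPKM in 25 of 35 L4 and 8 of 13 L5 cells of V1, and in 22 of 27 L4 and 11 of 15 L5 cells of S1. *Kcnd3* was thus detected about as often with *Kcnd2* as without it, and *Kcnd2* led in most cells of every group.

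Among the KChIPs, *Kcnip1* (chr11:33629339-33993152, minus strand) was the rule. It was detected in 37 of 42 L4 cells (88.1%, 74.4 to 96.0) and 15 of 17 L5 cells (88.2%, 63.6 to 98.5) of V1, and in 32 of 34 L4 cells (94.1%, 80.3 to 99.3) and 11 of 16 L5 cells (68.8%, 41.3 to 89.0) of S1. The level in V1 ran from 0 to 1033 CPM (median 274) in L4 and 0 to 1101 (median 407) in L5, and in S1 from 0 to 1248 (median 469) in L4 and 0 to 575 (median 243) in L5. Cells at 0 were in every group, and S1 L5 had the largest share of them. *Kcnip2* (chr19:45791839-45816061, minus strand), known best from the heart, was found in 16 of 42 L4 and 9 of 17 L5 cells of V1, and in 10 of 34 L4 and 9 of 16 L5 cells of S1. Its pooled level was 28.9 CPM in V1 L4 and 46.7 in V1 L5, against 19.2 in S1 L4 and 127.2 in S1 L5. *Kcnip3* (chr2:127456498-127522094, minus strand), whose product is also known as the transcriptional repressor DREAM, was rare, with reads in 4 L4 and 5 L5 cells of V1 and in 2 L4 and 1 L5 cells of S1. In S1 L4 its 5 reads in all amounted to 0.104 CPM.

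*Kcnip4* (chr5:48389502-49524907, minus strand), which has splice forms whose product slows Kv4 inactivation, was the KChIP with the widest range between groups. It was detected in 7 of 42 L4 cells (16.7%, 6.97 to 31.4) and 8 of 17 L5 cells (47.1%, 23 to 72.2) of V1, and in 10 of 34 L4 cells (29.4%, 15.1 to 47.5) and 13 of 16 L5 cells (81.2%, 54.4 to 96.0) of S1. The highest cell of V1 held 82.6 CPM in L4 and 661 in L5, and that of S1 held 186 in L4 and 821 in L5. The median was 98.6 CPM in S1 L5 and 0 in the other groups. The groups overlapped, since every group held cells at 0. With each cell thinned to 250000 reads the shares in V1 were 7.14% in L4 and 53.3% in L5, and in S1 26.5% in L4 and 80.0% in L5, which keeps the order of the groups. Exons of *Kcnip4* overlap those of the opposite-strand genes *5730480H06Rik* and *Gm20700*, so reads of those shared bases cannot be told apart either.

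**Figure D2:**
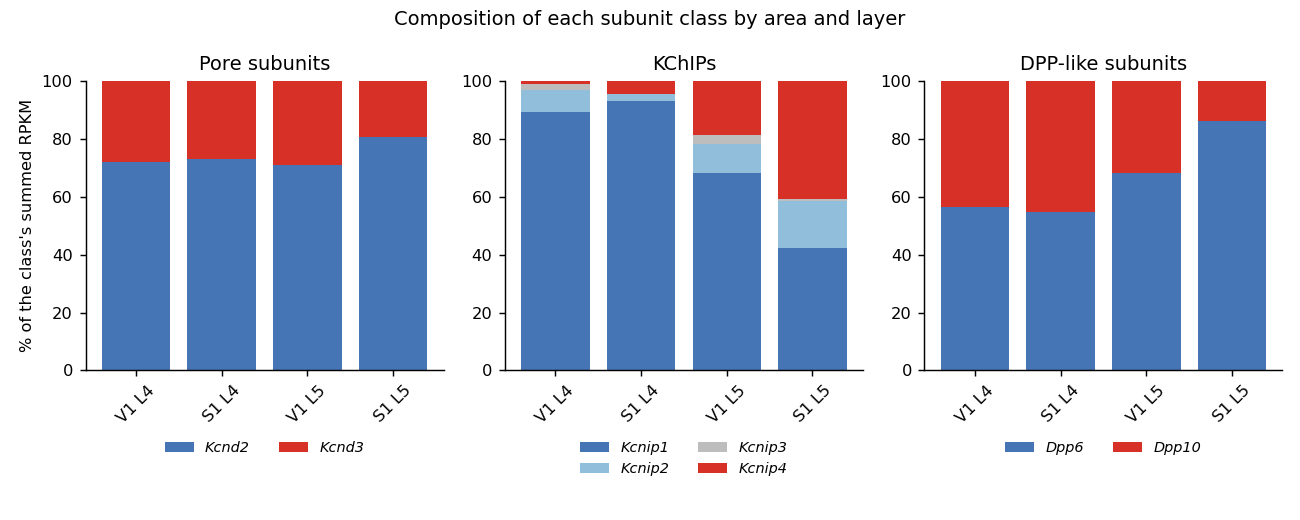
Share of each class's RPKM, summed over the cells of a group, held by its members (vertical axis, percent; 1 stacked bar for each area and layer). In the KChIP panel *Kcnip4* goes from 1.03% in V1 L4 to 40.8% in S1 L5, and in the DPP-like panel *Dpp10* goes from 43.4% to 13.6%, while *Kcnd2* stays between 70.97% and 80.7% of the pore class.

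By RPKM, *Kcnip1* was the leading KChIP in 35 of 40 L4 and 12 of 17 L5 cells of V1 with a KChIP read, and in 31 of 34 L4 and 8 of 14 L5 cells of S1. *Kcnip4* led in 2 and 4 of these V1 cells and in 3 and 6 of these S1 cells. Over the cells of a group, *Kcnip4* held 1.03% of the summed KChIP RPKM in V1 L4 and 18.7% in V1 L5, against 4.37% in S1 L4 and 40.8% in S1 L5. *Kcnip1* held 89.2% and 68.3% in V1 and 93.0% and 42.2% in S1, for L4 and L5. In S1 L5, 10 cells had reads of both, 3 of *Kcnip4* alone and 1 of *Kcnip1* alone. Most cells with *Kcnip4* there also had *Kcnip1*, which was detected in 11 of all 16 cells of that group. Over all kept cells, groups pooled, *Kcnip4* was detected in 31.6% of cells with *Kcnip1* and in 57.1% of cells without it.

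Of the DPP-like subunits, *Dpp6* (chr5:26817203-27727505, plus strand) was the most evenly detected gene of the set. It was found in 40 of 42 L4 and 15 of 17 L5 cells of V1 (medians 239 and 281 CPM, highest 1162 and 626), and in 30 of 34 L4 and 15 of 16 L5 cells of S1 (medians 224 and 291, highest 1078 and 614). The lowest value was 0 in each. Its group means spanned 6.68 to 7.35 on the log2 scale, against an SD between cells of 2.36 to 2.998. *Dpp10* (chr1:123321471-124045559, minus strand) was detected in 40 of 42 L4 cells (95.2%, 83.8 to 99.4) and 10 of 17 L5 cells (58.8%, 32.9 to 81.6) of V1, and in 31 of 34 L4 cells (91.2%, 76.3 to 98.1) and 8 of 16 L5 cells (50.0%, 24.7 to 75.3) of S1. In V1 its median was 197 CPM in L4 and 23.7 in L5 (highest 520 and 603), and in S1 132.8 in L4 and 0.332 in L5 (highest 813 and 203). The level was near its L4 range in some L5 cells and at 0 in others. Of cells with a DPP-like read, *Dpp6* had the higher RPKM in 25 of 41 L4 and 14 of 17 L5 cells of V1, and in 21 of 33 L4 and 14 of 15 L5 cells of S1.

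The first comparison asked how L4 somatostatin cells differ between areas, since the study contrasted V1 L4 and S1 L4 somatostatin neurons of different axonal shape. Of 8 genes, 6 passed the count filter, and 1 of these, *Kcnip1*, was called, where 3.2% of the 9201 genes tested were (1.3% higher and 1.89% lower in S1). *Kcnip1* averaged 8.02 ± 2.57 (SD, *n* = 34) in S1 and 6.70 ± 3.04 (*n* = 42) in V1. The difference was 1.31, higher in S1 on 5 of 5 days, with an SD of 1.35 across days, so its size was about that of the day-to-day spread. By day it was 2.54, 0.48, 0.13, 0.73 and 3.15 on days 2, 3, 5, 7 and 8. The smaller side was S1 with 4, 2, 9 and 2 cells on days 2, 5, 7 and 8, and V1 with 2 cells on day 3. Days 2 and 8 were the large ones, and without day 2 the difference was 0.996 and no longer met the limit. It was not called either with RPKM, a pseudocount of 10 or medians over cells. Pooled reads gave a ratio of 1.46, or 1.52 without the top cell of each group. The level of *Kcnip1* across cells, with group means taken off, correlated with the genes detected per cell at r = 0.37 and with log10 of the read total at 0.33. Its part in the difference was not tested.

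*Kcnd2* was lower in S1 L4 on 5 of 5 days, by 0.25, 2.61, 3.20, 2.39 and 2.31 on days 2, 3, 5, 7 and 8 (mean within days -2.15, SD 1.12), while the difference over all cells was -0.50. A single sign lower on all days was seen in 3.89% of tested genes. Over all cells of the first series it was 0.43 (16 S1 and 21 V1 cells), and over those of the second -1.31. The within-day and overall values thus differ, and V1 and S1 cells were not spread evenly over the days. Days 3, 5 and 8 had 2 cells on the smaller side, and the mean within days gives each day the same weight. When the mean of the within-day differences had to reach 1, an alternative chosen after the data were seen, 2 members were called, *Kcnd2* and *Kcnip1*, beside 5.79% of tested genes. *Kcnip4* averaged 1.67 ± 2.76 in S1 L4 and 0.52 ± 1.57 in V1 L4 and did not pass the count filter there. *Kcnd3* (-0.45), *Kcnip2* (-0.35), *Dpp6* (-0.39) and *Dpp10* (-0.55) differed by less than 1 and by less than their SD across days. *Dpp10* depended on the series, at -1.60 in the first (3 of 3 days lower) and 0.34 in the second; its S1 L4 mean was 4.97 in the first and 7.49 in the second. Over the 8 genes the median difference was -0.41, and over the 6 that passed the filter -0.42, beside 0.01 over all genes tested.

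**Figure D3:**
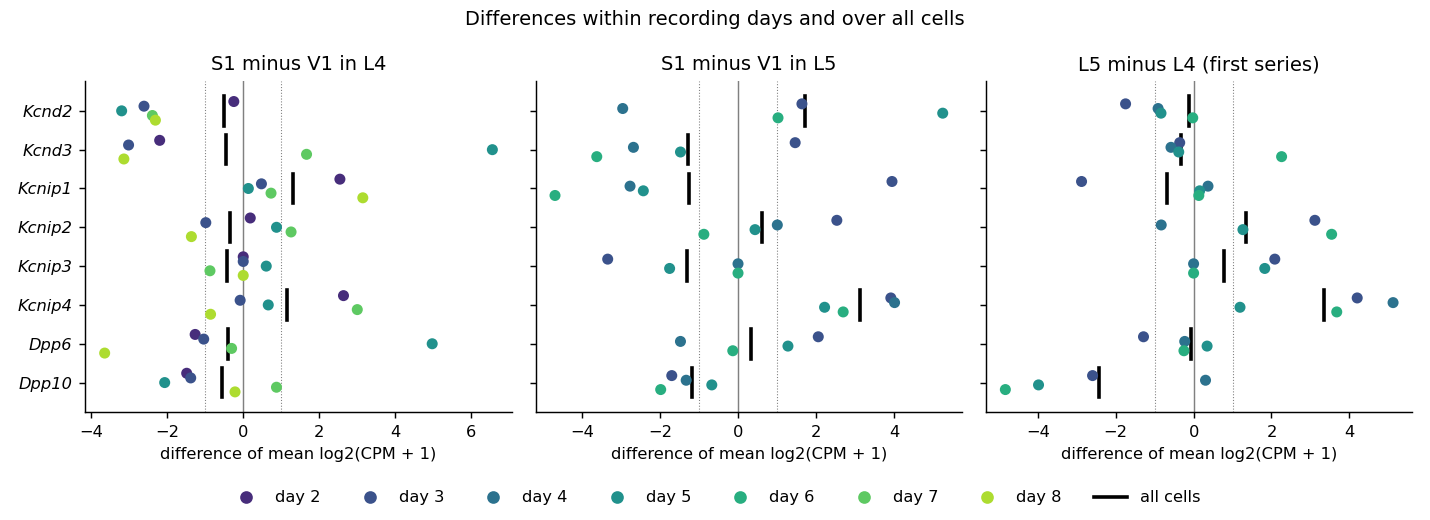
Difference of mean log2(CPM + 1) (horizontal axis) for each gene within single recording days (points, colored by day) and over all cells (black bar), for S1 minus V1 in L4, S1 minus V1 in L5 and, in the first series, L5 minus L4; dotted lines mark -1 and 1. All points lie right of 0 for *Kcnip1* in L4 and for *Kcnip4* in L5 and between layers, and left of 0 for *Dpp10* in L5 and for *Kcnd2* in L4 and between layers.

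The same contrast in L5 rested on *n* = 16 S1 and *n* = 17 V1 cells from 4 days. Of the 8 genes, 6 passed the filter and 2 were called, beside 12.7% of 6402 tested genes (8.54% higher and 4.15% lower in S1). *Kcnip4* averaged 6.01 ± 3.38 in S1 L5 and 2.90 ± 3.63 in V1 L5, a difference of 3.11. It was higher in S1 on 4 of 4 days, by 3.91, 4.01, 2.22 and 2.69 on days 3, 4, 5 and 6 (SD 0.89). No day reversed, and relative to the spread across days the difference was larger than for the other 7 genes. The pooled level was 268 CPM in S1 and 92.8 in V1, a ratio of 2.89, or 3.70 without the top cell of each. *Kcnip4* ranked 27th of the tested genes by size of difference.

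*Dpp10* went the other way in L5. It averaged 2.85 ± 3.32 in S1 L5 and 4.03 ± 3.92 in V1 L5, a difference of -1.18, lower in S1 on 4 of 4 days by 1.70, 1.33, 0.67 and 1.98 on days 3 to 6 (SD 0.57). With 4000 or more genes required per cell it was -0.41 and was not called, nor was it with RPKM, thinning, a pseudocount of 10 or medians over cells. Without day 4 it was -1.41 and lower on 3 of 3 days, but 9 cells had 32 or more counts and it failed the count filter, and without day 6 it was -0.90. On the mean within days the calls were again *Kcnip4* and *Dpp10*, beside 13.1% of tested genes. *Kcnd2* was higher in S1 L5 by 1.72 overall but lower on day 4 (-2.95), with an SD of 3.36 across days. *Kcnip1* was lower by 1.24 overall and was lower on 3 of 4 days, with day 3 at +3.94. These 2 genes therefore passed the size limit without a steady sign. Over the 8 genes the median difference was -0.42, but over the 6 that passed the filter it was 0.48, beside 0.24 over all genes tested. Among genes near the pathway, 1 of the 5 tested genes of the other A-type channel list was called higher in S1 L5 (*Kcnab3*, a beta subunit of other Kv channels, 2.33) and 1 lower (*Kcnab1*, a related beta subunit, -1.50), while in L4 none of the 5 were called.

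Between layers, the first series gave 33 L5 and 37 L4 cells. Of the 8 genes, 7 passed the filter and 1 was called, beside 7.69% of 8921 tested genes (5.16% higher and 2.53% lower in L5). *Kcnip4* was detected in 21 of 33 L5 cells (63.6%, 45.1 to 79.6) and in 9 of 37 L4 cells (24.3%, 11.8 to 41.2). It averaged 4.41 ± 3.80 in L5 and 1.05 ± 2.19 in L4, a difference of 3.35, higher in L5 on 4 of 4 days by 4.2, 5.12, 1.19 and 3.68 on days 3, 4, 5 and 6 (SD 1.68). By size it ranked 16th of the tested genes. Pooled reads gave a ratio of 13.9, or 19 without the top cell of each layer. By area it was 2.22 in V1 and 4.47 in S1, and it was called in S1. In V1 it was higher on 2 of 2 days but had 32 or more counts in 8 cells, which fails the count filter. On the mean within days *Kcnip4* was again the 1 call, beside 11.6% of tested genes. It was not called with medians over cells, where 1 of 4 days was lower. The interaction of area and layer was not tested.

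*Dpp10* averaged 5.87 ± 3.03 in L4 and 3.45 ± 3.63 in L5, a difference of -2.42 that was lower on 3 of 4 days and so not called, with day 4 at +0.31 (SD 2.25). Without day 4 the difference was -2.95 and it was called, as was *Kcnip2*. By area it was -2.54 in V1 and -2.12 in S1. *Kcnip2* was 1.36 higher in L5 (SD 2.0), lower on day 4 (-0.83) and higher on the other 3. *Kcnd2* was lower in L5 on 4 of 4 days, by 0.02 to 1.75, with a difference of -0.13 over all cells; 6.13% of tested genes were lower on all 4 days. *Dpp6* (-0.06), *Kcnd3* (-0.31) and *Kcnip1* (-0.70) differed by less than 1. Over the 8 genes the median was -0.09, and over the 7 that passed the filter -0.13, beside 0.19 over all genes tested. Of the 5 tested neuronal calcium sensors related to KChIPs, 2 were called higher in L5, *Ncald* (4.53) and *Vsnl1* (1.09), and none in the area contrasts. Of the other A-type list 1 of 5 was called higher in L5 (*Kcnab2*, 1.32). Of the DPP enzyme relatives, *Dpp8* and *Dpp9* passed the filter, and neither was called in the 3 contrasts.

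Because *Kcnip4* and *Dpp10* had the largest differences of the set between layers, in opposite directions, the sequence before their RefSeq starts is shown. RefSeq (GRCm38.p6) promoter entries matched all 8 genes. Each run below holds the 250 bases before a start, 5′ to 3′ on the gene's strand, with CG dinucleotides in capitals. Both *Kcnip4* windows lie inside the GENCODE span of the gene (chr5:48389502-49524907), so the sequence before its outermost GENCODE start is not shown. The reads are counted per gene, so they do not say which *Kcnip4* start was used.
Kcnip4, chr5:49285660-49285909, minus strand: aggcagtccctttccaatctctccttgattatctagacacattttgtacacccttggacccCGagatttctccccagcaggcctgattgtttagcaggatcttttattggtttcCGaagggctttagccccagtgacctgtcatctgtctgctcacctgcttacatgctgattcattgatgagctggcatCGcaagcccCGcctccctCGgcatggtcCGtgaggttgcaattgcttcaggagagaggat
Kcnip4, second start, chr5:48599683-48599932, minus strand: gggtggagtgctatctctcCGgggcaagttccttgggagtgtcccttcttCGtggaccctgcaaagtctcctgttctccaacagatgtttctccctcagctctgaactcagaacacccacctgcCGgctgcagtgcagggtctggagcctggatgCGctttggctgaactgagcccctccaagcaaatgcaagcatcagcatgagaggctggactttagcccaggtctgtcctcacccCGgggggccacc
Dpp10, chr1:124045560-124045809, minus strand: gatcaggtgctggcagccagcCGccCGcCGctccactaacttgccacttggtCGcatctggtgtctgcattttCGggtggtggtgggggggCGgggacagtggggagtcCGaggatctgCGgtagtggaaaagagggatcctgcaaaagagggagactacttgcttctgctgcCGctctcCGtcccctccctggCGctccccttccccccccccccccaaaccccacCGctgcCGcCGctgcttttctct
The *Kcnip4* windows held 6 and 5 CG dinucleotides and the *Dpp10* window 14, beside a median of 6 over 32851 promoter windows of this length. On either strand, none of the 3 windows held the TATA box letters TATAAA (in 12.4% of all windows), the cAMP-response half-site letters TGACG (17.8%) or the E-box letters CAGCTG (13%).

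Within single cells, reads of all 3 classes were usually present. A pore read was present in 82.6% of all kept cells, a KChIP read in 96.3% and a DPP-like read in 97.2%. All 3 classes were present in 84 cells (77.1%, 68.0 to 84.6). This was 33 of 42 L4 and 13 of 17 L5 cells of V1, and 26 of 34 L4 and 12 of 16 L5 cells of S1, with each share inside the counting intervals of the others. Each class was common by itself, and whether they occur together more often than their single shares would give was not tested. A cell held reads of 4.60 ± 1.40 of the 8 genes (1 to 7). There were 45 combinations, 24 of them seen once, and the commonest, *Kcnd2* with *Kcnip1*, *Dpp6* and *Dpp10*, was found in 14 cells, 9 in V1 L4 and 5 in S1 L4. The class most often missing was the pore class, which is also the lowest in RPKM.

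**Figure D4:**
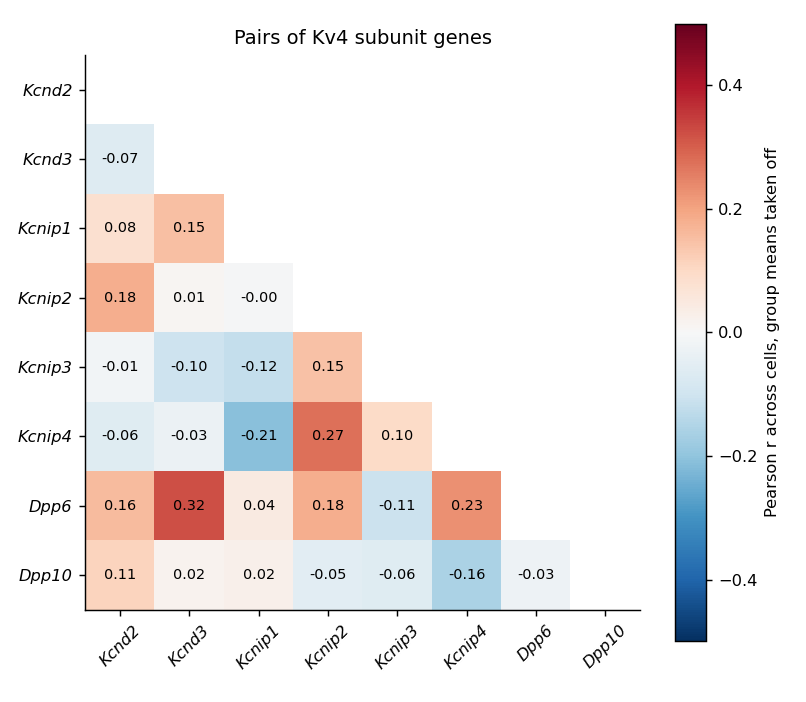
Pearson r of log2(CPM + 1) across all kept cells for each of the 28 pairs, after the mean of each area-and-layer group was taken off (color scale -0.5 to 0.5). Values run from -0.21 (*Kcnip1* with *Kcnip4*) to 0.32 (*Kcnd3* with *Dpp6*).

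The 28 pairs gave weak correlations across cells, from -0.21 to 0.32, and 4 were above 0.2 in size. Counts are sparse and the points share depth, day and library, so these are descriptions. The highest was *Kcnd3* with *Dpp6*, where all 49 cells with *Kcnd3* had *Dpp6*, beside 85% of the cells without *Kcnd3*. For this pair r was 0.30 in thinned cells. *Kcnip2* with *Kcnip4* gave 0.27, at 0.35 in the first series and 0.04 in the second, which has no L5 cell. In L4 the pair gave -0.16 in V1 and 0.12 in S1. In S1 L5 all 9 cells with *Kcnip2* also had *Kcnip4*, which was detected in 13 of the 16 cells there. The pair gave r = 0.79 over these 16 cells (0.77 to 0.87 with each day left out in turn, 0.79 in 15 thinned cells). In V1 L5 it was 0.38 over 17 cells (0.25 to 0.57 with each day left out). Of the L4 cells with *Kcnip4* reads, all 7 in V1 and all 10 in S1 had *Dpp10* reads as well. *Dpp10* was detected in 95.2% and 91.2% of all cells of these 2 groups, and r for the pair was -0.07 and 0.27. In the second series, with group means taken off, this pair gave 0.19. In L5, 5 of 8 cells with *Kcnip4* in V1 and 8 of 13 in S1 had no *Dpp10* read, and r was -0.50 and -0.45. With each day left out r ran from -0.73 to -0.32 in V1 and from -0.74 to -0.25 in S1. *Kcnip1* with *Kcnip4* was -0.52 in V1 L5 (-0.71 to -0.31) and 0.15 in S1 L5 (0.07 to 0.28).

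Across all kept cells, with group means taken off, the genes most like each member by Pearson r were as follows, again as a description. *Kcnip1* was most like *Atxn10* (0.52), *Uqcrc2* (0.49) and *Prr24* (0.49), and *Rorb* was lowest (-0.36). *Dpp6* was most like *Rap1gap* (0.53), *Chl1* (0.51) and *Elp5* (0.51), with *Mt1* lowest (-0.33). *Kcnip2* was most like *Gabrb1* (0.48) and *Gabra4* (0.48), both GABA-A receptor subunits, and *Erbb4* (0.44), with *Kif5a* lowest (-0.31). *Kcnip4* was most like *Egln3* (0.46), *Lrp1b* (0.43) and *Crh* (0.41), with *Gria1* lowest (-0.37). *Dpp10* was most like *Nefl* (0.43), *Cbln4* (0.40) and *Cby1* (0.39), with *Unc5d* lowest (-0.41). *Kcnd2* was most like *Pnrc1* (0.46), *Dctn4* (0.43) and *Fbxo44* (0.42), with *Wnk1* lowest (-0.37), and *Kcnd3* like *Zbed3* (0.39), *Lingo2* (0.35) and *Trim67* (0.34), with *Pygm* lowest (-0.30). *Kcnip3* had 32 or more counts in 7 cells only and was not ranked. Each named r is an extreme among 9992 genes, over which the 99th percentile ran from 0.26 (*Kcnip4*) to 0.38 (*Kcnip1*). These pairs were picked over the same cells that make up both series, so the choice itself favors a shared sign. Of the 28 pairs named, 26 had the same sign in both series. The exceptions were *Dpp10* with *Unc5d*, a gene detected in 18 cells, at -0.44 in the first and 0.28 in the second, and *Kcnip4* with *Crh*, at 0.48 and -0.04. *Kcnip4* with *Lrp1b* was 0.55 and 0.03.

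Over a panel of 14 genes that mark somatostatin subtypes, the correlations of the largest size were those of *Kcnip4* with *Crh* (0.41) and *Npy* (-0.34), of *Dpp10* with *Cbln4* (0.40) and *Spon1* (-0.37), and of *Kcnip1* with *Cbln4* (0.39) and *Calb1* (0.37). Next in size were *Kcnip1* with *Crhbp* (0.29), *Kcnip2* with *Npy* (-0.27) and *Kcnd2* with *Cbln4* (0.26). In the second series, which has no L5 cell, *Kcnip4* gave -0.04 with *Crh* and 0.01 with *Npy*, *Dpp10* -0.07 with *Spon1* and *Kcnip2* 0.06 with *Npy*. *Dpp10* correlated with the summed oligodendrocyte list at 0.25 (0.28 in the first series and 0.01 in the second), where *Kcnip4* gave 0.04 and *Kcnip1* -0.11.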

How the data were processed

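Cytosol of patch-clamped, labeled neurons of SOM-Cre/Ai9 mice was converted to cDNA by a Smart-seq2-type protocol and sequenced from one end, and the authors aligned reads to mm10 with STAR 2.4.2a (bcl2fastq 2.20 is also listed in the submitters' processing notes). The deposited counts are raw read counts per gene, with no molecular identifiers, and the deposited RPKM values were computed by the authors from RefSeq models. Unlike counts, RPKM is length-scaled, so it was used to compare genes.

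Counts were divided by each cell's total to give CPM and averaged as log2(CPM + 1). Cells were grouped by the region and layer labels. Day is the date in the cell's title. Thinning drew 250000 reads per cell without replacement, leaving 3 cells out. edgeR 4.0.16 (R 4.3.3) gave TMM factors for 1 alternative; all else used Python 3.11.15, NumPy 2.4.6, pandas 2.3.3 and SciPy 1.17.1. No test was run, since the labels name no animal. Gene positions are from GENCODE M21 and promoters from RefSeq. Genes named are the 8 members, those of the fixed lists, and for each member past the filter the 3 genes with the highest and the 1 with the lowest correlation. The members and lists were chosen with earlier results of these data known. Alternatives were TMM library sizes, RPKM, thinning, pseudocounts of 0.1 and 10, medians over cells, a limit of 4000 genes, no *Sst* rule, no gene filter, each recording day left out, single series, single areas and, chosen after the data were seen, the mean within days. The 4 cells with no *Sst* read were left out of the groups.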

Additional observations from a re-analysis of the deposited data

Results flagged for a closer look

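Day differences for each gene and contrast were examined in 24 sets of 4 or 5 days for a highest or lowest day whose gap to the nearest other day, divided by the range, passed Dixon's 95% critical value. In 2 sets a day did, and that limit by its definition marks about 1 in 20 sets of normally distributed values. *Kcnip1*, L5 minus L4, was -2.88 on day 3 and between 0.13 and 0.37 on the other days. The mix of areas differed on day 3, with 6 S1 and 2 V1 cells in L4 and 3 S1 and 5 V1 cells in L5. That day *Kcnip1* averaged 9.06 in L4 and 8.53 in L5 of S1, and 8.58 and 4.58 in V1. The part of the mix was not tested. *Kcnd3*, L5 minus L4, was 2.26 on day 6 and below 0 on the other days. Day 6 had 2 L4 cells, and neither had a *Kcnd3* read.

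Reads of 6 members were also present in the 4 labeled S1 L4 cells without an *Sst* read, which entered no comparison. Pooled over these cells, *Kcnip2* was at 957 CPM, *Dpp6* at 377, *Kcnip1* at 153.8, *Kcnip4* at 70.1, *Dpp10* at 11.3 and *Kcnd2* at 10.5. The most deeply sequenced cell, of day 4, held 4284 of the 5268 *Kcnip2* reads and 373 of the 386 *Kcnip4* reads. Without it *Kcnip2* was at 376 CPM, *Dpp6* at 394, *Kcnip1* at 108.1 and *Kcnip4* at 4.97. *Kcnip2* was detected in 3 of the 4 cells, beside a highest pooled value of 127.2 CPM in any group of kept cells, and no *Kcnd3* or *Kcnip3* read was counted, which allows up to 0.67 CPM (exact Poisson). All 4 cells had *Pvalb* reads. In the cells of days 2, 3 and 4 *Pvalb* was at 758, 502 and 921 CPM and *Kcnip2* at 324, 520 and 1483. In the cell of day 5 they were at 94 and 0 CPM. The paper set aside 3 labeled, fast-spiking cells with no somatostatin count, which mapped to a *Pvalb* type. Which of these 4 cells they match was not worked out, and whether *Pvalb* bears on the *Kcnip2* values was not tested.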

How the results depend on the processing

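The number of members called was small in every contrast and moved with several choices. For S1 minus V1 in L4 the 1 call became 0 with deposited RPKM, with a pseudocount of 10 or with medians over cells. It was 2 in the first series (*Kcnip1*, *Dpp10*), with 3 days, and 3 in the second (*Kcnd2*, *Kcnip1*, *Dpp6*), with 2 days. With each day left out it ranged from 0 (without day 2) to 2 (without day 7, which adds *Dpp10*). A single sign is easier to meet over fewer days. For single series, single areas and left-out days the share of all tested genes called was not worked out, so these counts have no background. For S1 minus V1 in L5 the 2 calls became 1, *Kcnip4*, with RPKM, thinning, a pseudocount of 10, medians or 4000 genes, and ranged from 2 to 3 with each day left out, where *Dpp10* was not called without day 4 or without day 6. For L5 minus L4 the 1 call became 0 with medians. It became 2 in S1 alone (*Kcnip2*, *Kcnip4*), with 3 days, and was *Dpp10* in V1 alone, with 2 days. With each day left out it ranged from 1 to 3 (without day 4). *Kcnip4* stayed called in L5 under every alternative run, and between layers under all but medians and V1 alone. Of 424 member differences under the alternatives, 9 moved by more than 1 SD across days, 26 changed sign and 6 became 0, all with medians over cells; no difference that was called changed sign. Of 140 pair correlations under the alternatives, 7 moved and 25 changed sign. A change of sign did not by itself count as a move, so the sign of a weak correlation was not stable. The shares of cells with all 3 classes and with both pore genes did not move beyond their counting intervals. The mean of members detected per cell stayed within the SD between cells, a wide limit for means over largely the same cells. No paired analysis was possible because replicate numbers only name single cells. Recording days are shared by the groups, and with the mean of the within-day differences, chosen after the data were seen, the calls became 2 for S1 minus V1 in L4 (*Kcnd2*, *Kcnip1*) and stayed at 2 in L5 and 1 between layers. Days were not tested as pairs, since they are not independent animals. Low genes are limited by depth: the 3-read floor was 2.50 to 2.95 CPM at the median total of each group, and a cell without a read may still express the gene.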
